A study of Mus musculus with 12 samples.

Results

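The renal cortex of diabetic ANRIL knockout mice (KO-D, 3 mice) was compared with that of non-diabetic wild-type mice (WT-C, 3 mice) across all expressed genes. These are 6 of the 12 libraries of a study that also holds wild-type diabetic (WT-D) and non-diabetic knockout (KO-C) mice, 3 of each. KO-D mice lack a stretch of chromosome 4 beside the Ink4 locus (Del[4C4-C5]1Lap, on the 129S6/SvEvTac background) and received intraperitoneal streptozotocin, which kills the beta cells of the pancreas, at 50 mg/kg on 5 consecutive days. WT-C mice were littermates that received citrate buffer. The mice were male, the age label reads 8 weeks for each group, and tissue was taken about 2 months after the onset of diabetes. The labels give the name of the deletion strain to the wild-type mice as well, and the groups here follow the genotype and treatment labels. KO-D and WT-C differ in genotype and in diabetes at once, so the contributions of the 2 cannot be told apart in this comparison. The levels of WT-D mice, and for a few genes of KO-C mice, are given beside part of the genes named, and the plot of 12 genes by mouse shows the 4 groups. All values are TMM-scaled counts per 1000000 counted reads (CPM) of single mice, in the order of replicates 1, 2 and 3, and groups are given as mean ± SD (n = 3). Log2 changes are those of KO-D against WT-C on the log2(CPM + 0.1) scale with their standard error (SE), p-values are limma's after Benjamini-Hochberg adjustment over the 18461 tested genes, and a gene is called at an adjusted p under 0.01.

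ANRIL is a long noncoding RNA transcribed antisense to the cell cycle inhibitor genes of the Ink4 locus, and it is known in human cells to bind polycomb proteins. The kidney cortex consists mostly of proximal tubules, which reclaim glucose, amino acids, phosphate and filtered protein and burn fatty acids to do so. It also holds glomeruli with their podocytes, the thick ascending limb, and the distal nephron, which tunes the excretion of salt, calcium, magnesium and acid. Diabetic nephropathy is known for podocyte loss, matrix accumulation, inflammation and tubular injury.

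The WT-C libraries held 35389050 to 40864496 counted reads and the KO-D libraries 23781928 to 28894558, and the TMM factors were 0.737 to 0.917 in WT-C and 1.10 to 1.28 in KO-D. Log2 levels correlated across genes at 0.969 to 0.986 within the groups and at 0.927 to 0.951 between them. On the first principal component of the 12 libraries (50.9% of the variance) WT-C lay at -65.4 to -49.4 and KO-D at 53.5 to 66.0. On the second (13.7%) WT-C replicate 1 lay at 35.3 and the other WT-C mice at -9.03 and -18.1. WT-C replicate 1 was also the farthest from the mean of the other mice of its group. Its median absolute log2 distance was 0.342, against 0.173 to 0.252 for the other libraries compared. KO-D replicate 1 stood apart on the second component, at -55.9. In it the urea transporter gene Slc14a2, of the medulla, was nearly absent, at 0.0316, 91.00 and 36.3 CPM in the KO-D mice and 64.2, 48.5 and 9.28 in the WT-C mice. Cyp7b1 was at 4.42, 385 and 244 CPM in KO-D and 518, 343 and 253 in WT-C. Slc22a19 was at 5.97, 153 and 105 in KO-D and 214, 153 and 105 in WT-C. Without this library 3297 genes were called, and the results that rest on it are given with and without it. Umod, Slc12a1, Slc5a2, Slc34a1, Slc12a3, Aqp2, Nphs1 and Pecam1, markers of the cell types of the cortex, were detected in each of the 6 libraries. In bulk tissue, fewer cells of a type and less RNA per cell cannot be told apart.

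KO-D kidneys differed from WT-C kidneys in 4317 of the 18461 tested genes (23.4%). Of these 1921 were higher (10.4% of the tested genes) and 2396 lower (13%). At an adjusted p under 0.05 the counts were 3569 higher (19.3%) and 3831 lower (20.8%). The called lower genes were more abundant, with a median level of 24.5 CPM against 5.12 for the called higher genes and 7.55 for all tested genes. Among called genes 358 rose and 145 fell by more than 4-fold, and 96 rose and 8 fell by more than 8-fold. The called lower genes summed to 244570 CPM in WT-C and 109490 in KO-D, and the called higher genes to 16713 and 39645. The split between higher and lower depended on the scaling between libraries, since on unscaled CPM 87.4% of 5364 calls were higher and the tested genes had a median log2 change of 0.54 instead of 0.03. Without KO-D replicate 3, 2372 genes were called, and without KO-D replicate 2 the higher genes numbered 1218.

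**Figure D1:**
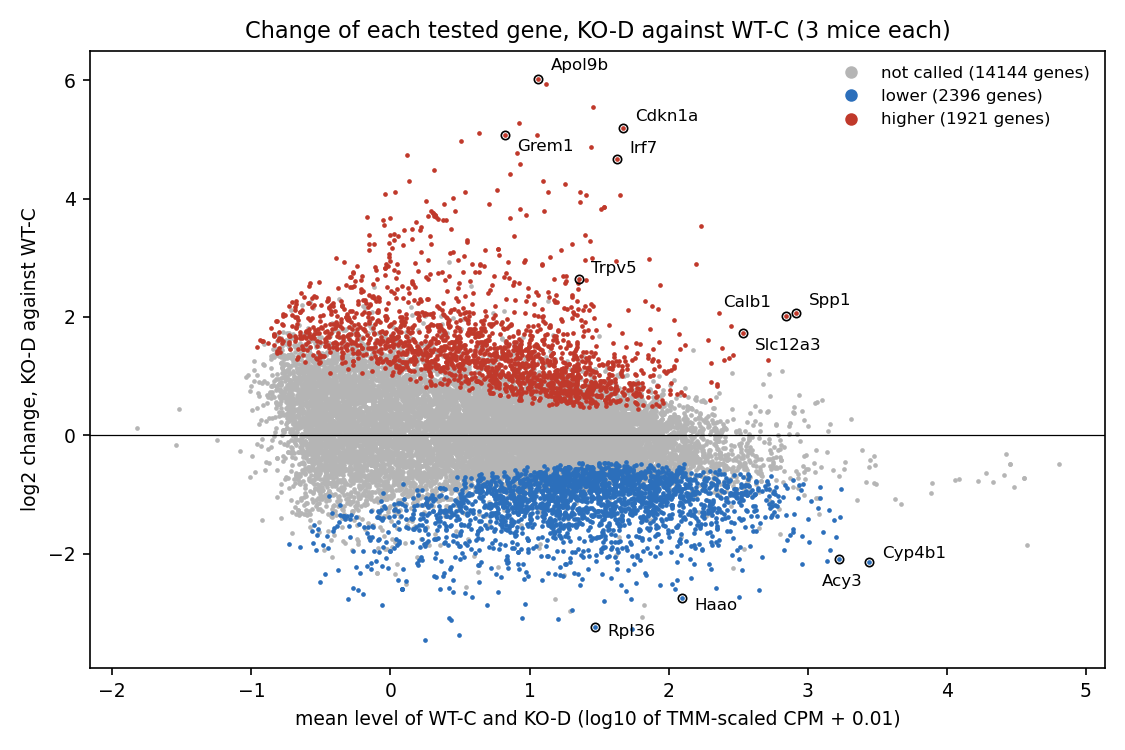
Each point is 1 of the 18461 tested genes, with its mean level over WT-C and KO-D on the x axis (log10 of TMM-scaled CPM + 0.01) and its log2 change in KO-D against WT-C on the y axis. The 1921 called higher genes (red) reach a log2 change of 6.03 at Apol9b, and the 2396 called lower genes (blue) lie at higher mean levels, with Cyp4b1 and Acy3 among the most abundant.

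Interferon-stimulated genes were among the largest increases. Apol9b and Apol9a, near-identical apolipoprotein L genes whose reads cannot be fully separated, rose most. Apol9b was at 0.299, 0.280 and 0.170 CPM in the WT-C mice and 26.97, 16.8 and 24.7 in the KO-D mice, a log2 change of 6.03 (SE 0.54, adjusted p = 2.3e-05). For Apol9b WT-D mice were at 25.4 ± 17.3 CPM and KO-C mice at 0.426 ± 0.184. Gbp6, a guanylate-binding GTPase that attacks the vacuoles of intracellular pathogens, was at 0.930, 0.589 and 1.83 CPM in WT-C and 66.6, 28.6 and 72.8 in KO-D (log2 change 5.55, SE 0.45, adjusted p = 1.4e-05). Oas2, which makes the oligoadenylates that activate RNase L, was at 0.698, 0.224 and 0.951 CPM in WT-C and 18.4, 23.5 and 24.3 in KO-D, and Ifit1, which binds foreign RNA ends, at 2.23, 1.12 and 1.97 in WT-C and 58.5, 38.4 and 64.9 in KO-D. Each KO-D mouse was more than 10-fold above the highest WT-C mouse for these 4 genes. Replicate 2 was the lowest of the KO-D mice for Apol9b, Gbp6 and Ifit1 and not for Oas2.

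Interferon genes are switched on through the interferon-stimulated response element (ISRE) in their promoters. A core of this element, 2 copies of GAAA with any 2 bases between them, was searched on both strands in the 250 bases before the start of each gene in RefSeq (GRCm38.p6). It stood in 936 of 27025 promoters (3.46%) and in 410 of the 12093 of tested genes (3.39%). Of 30 antiviral effector genes, 21 had a promoter sequence and 10 of these (47.6%) held it, and of 16 interferon-inducible GTPases 9 of 10 (90%) did. Among interferon sensors, receptors and transcription factors 2 of 21 (9.52%) did. Gbp6, Irf7 and Oasl1 were also looked up and gave no match or had no promoter sequence. Below are 100 bases from the promoters of 4 called interferon-stimulated genes that held it, 5′ to 3′ on the strand of the gene, with the element in capitals.
Ifit1 (chr19:34640759-34640858, plus strand): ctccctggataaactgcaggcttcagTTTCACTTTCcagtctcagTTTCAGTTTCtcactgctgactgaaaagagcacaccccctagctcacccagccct
Apol9b (chr15:77728972-77729071, plus strand): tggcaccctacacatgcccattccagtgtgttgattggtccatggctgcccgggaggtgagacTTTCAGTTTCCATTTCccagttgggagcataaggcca
Oas1g (chr5:120887614-120887713, minus strand): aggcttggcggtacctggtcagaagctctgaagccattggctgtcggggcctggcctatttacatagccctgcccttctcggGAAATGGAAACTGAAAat
Bst2 (chr8:71537542-71537641, minus strand): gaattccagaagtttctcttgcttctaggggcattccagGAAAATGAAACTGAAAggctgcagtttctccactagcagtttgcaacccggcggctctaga
Ifit1 holds 2 separate copies on its reverse strand, whereas in Apol9b, Oas1g and Bst2 2 overlapping copies form 1 run. A match is a description of the letters and not a binding site.

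All 30 antiviral effectors were called higher, against 10.4% of all tested genes, with a median log2 change of 3.26 and a range from 0.99 to 5.08. Bst2, which tethers viruses to the cell surface, was at 6.21, 3.98 and 4.69 CPM in the WT-C mice and 93.6, 65.1 and 94.3 in the KO-D mice (log2 change 4.06, adjusted p = 2.8e-05). Oas1g was at 0.565, 0.280 and 0.612 in WT-C and 18.5, 10.96 and 17.7 in KO-D, and the related Oas1a, with which it shares reads, at 1.59, 1.21 and 1.36 in WT-C and 29.2, 19.9 and 28.1 in KO-D. All 16 GTPases of the Gbp and Irg families were also called higher (median 2.90). Iigp1, which ruptures parasite vacuoles, was at 1.73, 1.09 and 2.17 CPM in WT-C and 24.5, 18.5 and 28.4 in KO-D. None of these 46 calls was lost when any 1 of the 6 libraries was left out. Of 26 sensors, receptors and transcription factors 13 were higher and 1 lower (median 1.18, and 19 higher and 0 lower on unscaled CPM). Among the higher genes were Dhx58, a regulator of RNA sensing (0.631, 0.477 and 0.646 CPM in WT-C, 6.06, 5.94 and 7.49 in KO-D) and Irf9 (10.8, 7.12 and 9.31 in WT-C and 44.5, 34.6 and 44.3 in KO-D). The KO-D mice did not overlap with the WT-C mice in any of the genes named here, as for 26.1% of all tested genes in this direction. WT-D levels were 18.6 ± 8.79 CPM for Iigp1 and 7.04 ± 3.83 for Dhx58.

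**Figure D2:**
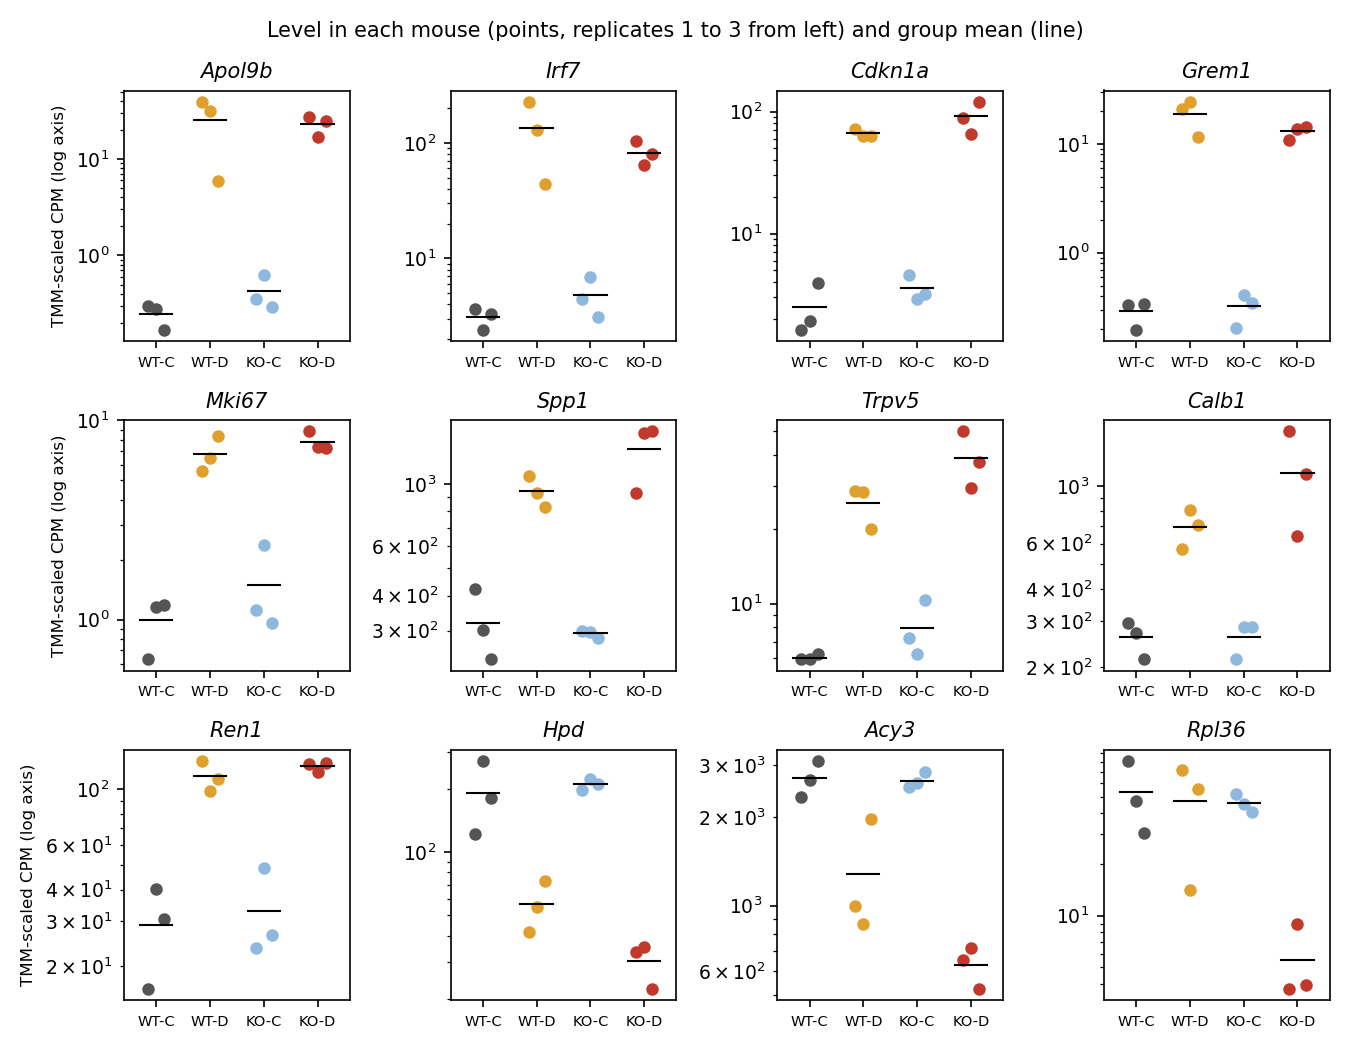
Levels of 12 genes in each mouse (points, in the order of replicates 1 to 3) and the group mean (line), on a log axis of TMM-scaled CPM, for the 4 groups. For each of the 12 genes the KO-D mice lie wholly above or wholly below the WT-C mice, as for 26.1% (above) and 26.4% (below) of all tested genes. For Rpl36 the WT-D mean of 46.9 CPM lies near the WT-C mean of 53.1, and the KO-D mean is 5.53.

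Genes for antigen presentation on MHC class I were higher as well, 12 of 20 being called higher and 0 lower (median 0.89). Nlrc5, the activator of class I transcription, was at 0.233, 0.112 and 0.713 CPM in WT-C and 6.44, 6.34 and 6.87 in KO-D (log2 change 4.11, SE 0.46, adjusted p = 6.4e-05). B2m, the common light chain of class I molecules, was at 257, 296 and 356 CPM in WT-C and 835, 564 and 821 in KO-D and was among the 5 called genes with the largest gain in CPM. On the class II side 2 of 10 genes were called, 4 without KO-D replicate 1, 1 without any other of the 6 libraries and 5 on unscaled CPM. The class II activator Ciita was at 3.06, 2.97 and 3.40 CPM in WT-C and 3.66, 5.88 and 4.49 in KO-D (adjusted p = 0.0439) and did not pass.

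Cdkn1a, the gene of the cell cycle brake p21 (chromosome 17, 29090976 to 29100727 in mm10), had the smallest p of all genes together with Grem1. It was at 1.63, 1.93 and 3.91 CPM in the WT-C mice and 88.5, 65.8 and 119.9 in the KO-D mice, a log2 change of 5.20 (SE 0.29, adjusted p = 2.0e-06). WT-D mice were at 66.5 ± 5.07 CPM and KO-C mice at 3.55 ± 0.874. The Ink4 inhibitor Cdkn2b, next to the deletion, was at 2.33, 1.09 and 0.544 CPM in WT-C and 0.0632, 0.985 and 0.505 in KO-D (adjusted p = 0.252), and these mice overlapped. Of 28 p53 target genes 13 were higher and 2 lower (median 0.65), 1 was lower without any of the libraries other than KO-D replicate 2, and on unscaled CPM 17 were higher and 0 lower. Eda2r, of the TNF receptor family, was at 0.0997, 0.0561 and 0.306 CPM in WT-C and 11.3, 4.50 and 9.87 in KO-D (log2 change 5.11, SE 0.41). Phlda3, which restrains Akt, was at 2.19, 1.63 and 2.34 in WT-C and 18.00, 16.2 and 15.6 in KO-D, and Trp53inp1 at 9.80, 11.9 and 13.01 in WT-C and 53.8, 35.6 and 50.6 in KO-D. Inka2, which is not in the list and whose p was among the 5 smallest, was at 0.233, 0.196 and 0.306 CPM in WT-C and 5.84, 4.66 and 5.74 in KO-D. These 4 genes separated the groups without overlap, as 26.1% of all tested genes did in this direction. The message of p53 itself, Trp53, was at 20.3, 20.7 and 22.7 CPM in WT-C and 18.9, 21.5 and 19.8 in KO-D, with an adjusted p of 0.66.

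Genes of the dividing cell were higher too. Of 23 G2/M and mitosis genes 16 were higher and 0 lower (median 1.83), and 22 of the 23 separated the groups, as 26.1% of all tested genes did in this direction. Mki67, the marker of cycling cells, was at 0.631, 1.15 and 1.19 CPM in the WT-C mice and 8.81, 7.32 and 7.31 in the KO-D mice (log2 change 2.90, SE 0.32, adjusted p = 5.8e-05). Top2a, which untangles sister chromatids, was at 0.166, 0.813 and 0.781 in WT-C and 5.34, 4.63 and 5.20 in KO-D, and Tpx2, which builds the spindle, at 0.166, 0.393 and 0.340 in WT-C and 4.23, 3.05 and 3.42 in KO-D. The levels are low, and KO-D replicate 1 was the highest of its group for these 3 genes. Of 24 DNA replication and G1/S genes 10 were higher and 1 lower (median 0.80), 6 were higher without WT-C replicate 3 or without KO-D replicate 3, and 16 were higher and 0 lower on unscaled CPM. Mcm6, a subunit of the replicative helicase, was at 1.33, 1.37 and 0.985 CPM in WT-C and 6.48, 3.78 and 5.05 in KO-D.

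Promoters of mitotic genes often carry the cell cycle gene homology region (CHR), TTTGAA, through which they are repressed outside division. These short letters stood in the 250 bases before the start in 18.3% of all promoters and in 13.5% of those of tested genes. They stood in 9 of the 19 mitotic genes with a promoter sequence (47.4%). They were not particular to mitotic genes, standing in 5 of 10 interferon-inducible GTPases (50%) and 8 of 21 BCL2 family and caspase genes (38.1%). Replication genes held them in 3 of 18 promoters (16.7%), and interferon sensors, receptors and transcription factors in 0 of 21. The letters can overlap the interferon element by GAA. The promoters of Mki67 and Top2a are shown with the CHR in capitals, the gene strand 5′ to 3′.
Mki67 (chr7:135716425-135716524, minus strand): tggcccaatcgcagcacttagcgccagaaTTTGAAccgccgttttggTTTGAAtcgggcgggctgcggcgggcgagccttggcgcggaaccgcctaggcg
Top2a (chr11:99024190-99024289, minus strand): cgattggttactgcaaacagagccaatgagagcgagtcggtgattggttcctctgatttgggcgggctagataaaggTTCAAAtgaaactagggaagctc
An E2F motif (TTTCGCGC, both strands) stood in 3 of 18 promoters of the replication genes (16.7%). It stood in 0.3% of all promoters and in 0.546% of those of tested genes.

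Markers of macrophages and dendritic cells were higher in KO-D mice, with 14 of 23 called higher and 0 lower (median 1.33). Adgre1, which encodes the macrophage antigen F4/80, was at 1.53, 0.897 and 1.56 CPM in the WT-C mice and 4.52, 7.22 and 4.91 in the KO-D mice (log2 change 1.99, SE 0.34, adjusted p = 7.3e-04). The pan-leukocyte gene Ptprc was at 3.49, 2.13 and 3.74 CPM in WT-C and 9.85, 12.3 and 11.4 in KO-D, and Fcgr1, an Fc receptor that interferon also induces, at 0.498, 0.168 and 0.680 in WT-C and 2.37, 3.74 and 3.36 in KO-D. The receptor for macrophage growth factor, Csf1r, was at 56.6, 56.7 and 67.03 CPM in WT-C and 29.98, 70.5 and 55.1 in KO-D (adjusted p = 0.35), while its ligand Csf1 was at 3.32, 3.20 and 2.82 in WT-C and 14.6, 18.8 and 15.7 in KO-D (log2 change 2.35, SE 0.19). The summed level of the 23 markers was 100.6 to 138 CPM in WT-C and 142 to 287 in KO-D. The part of a change in cell makeup in the other immune results was not tested.

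The 15 T and NK cell genes had a median log2 change of 0.82 and 0 calls in limma. Cd3e was at 0.0997, 0.0280 and 0.340 CPM in WT-C and 0.505, 0.591 and 0.327 in KO-D, with an adjusted p of 0.0356 (7 of the 15 had an unadjusted p under 0.05, and 0 were called by edgeR and 0 by DESeq2). On unscaled CPM 6 of the 15 were called higher. Of 28 chemokines and colony stimulating factors 11 were higher and 1 lower (7 higher without KO-D replicate 3, 16 higher and 0 lower on unscaled CPM, and 3 lower in DESeq2). Cxcl10, which draws activated T cells, was at 0.831, 1.12 and 0.713 CPM in WT-C and 8.50, 6.83 and 10.5 in KO-D. Ccl2, which draws monocytes, was at 0.133, 0.0841 and 0.408 in WT-C and 2.31, 3.25 and 3.57 in KO-D. Of 22 complement genes 12 were higher and 0 lower (median 1.42). C3, the central complement protein, was at 8.74, 8.44 and 8.46 CPM in WT-C and 33.5, 33.9 and 38.9 in KO-D, with WT-D at 62.5 ± 37.4, and C7, of the membrane attack complex, at 1.93, 0.533 and 1.19 in WT-C and 7.77, 13.6 and 10.7 in KO-D.

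Along the nephron the called genes of the proximal tubule were lower and most of those of the distal segments higher. Of 20 genes of the early proximal segments 9 were lower and 0 higher (median -1.09), against 13% of all tested genes called lower. This count was 5 without WT-C replicate 2 or 3 or KO-D replicate 2 or 3, and 4 on unscaled CPM, with a median of -0.55. Ggt1, the brush border enzyme that splits glutathione, was at 1338, 1396 and 1451 CPM in the WT-C mice and 462, 458 and 376 in the KO-D mice (log2 change -1.70, SE 0.21, adjusted p = 1.1e-04). Slc22a8, an importer of organic anions, was at 298, 639 and 592 CPM in WT-C and 179, 79.8 and 154 in KO-D, and Amn, a partner of cubilin in protein uptake, at 74.1, 47.8 and 43.6 in WT-C and 18.8, 17.7 and 19.7 in KO-D. KO-D replicate 1 was the highest of its group for Ggt1 and Slc22a8. The groups did not overlap for any of the 3 genes, as for 26.4% of all tested genes in this direction. Slc5a2, the glucose transporter Sglt2 of the early tubule, was at 52.6, 115 and 147 CPM in WT-C and 77.4, 13.3 and 44.3 in KO-D, so that the groups overlapped (adjusted p = 0.0418, and 0.00726 without KO-D replicate 1). The endocytic receptor Lrp2 was at 862, 1349.8 and 1404 in WT-C and 958, 686 and 768 in KO-D (adjusted p = 0.0696). Of 15 genes of the late segment 4 were lower, 2 without WT-C replicate 2 or 3 or KO-D replicate 3, 1 on unscaled CPM and 7 with the trends on GC content and length removed. Slc22a7, a further anion carrier, was at 156, 136 and 138 CPM in WT-C and 11.5, 52.9 and 24.7 in KO-D. KO-D replicate 1 was the lowest for the late list, whose median relative to the WT-C mean was -1.06, -0.33 and -0.65 in the KO-D mice.

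In the distal convoluted and connecting tubule 9 of 15 genes were higher and 1 lower (median 1.08). Trpv5, the channel through which calcium is reclaimed (chromosome 6, 41652173 to 41680769 in mm10), was at 5.95, 5.94 and 6.22 CPM in the WT-C mice and 49.9, 29.4 and 37.5 in the KO-D mice, a log2 change of 2.64 (SE 0.22, adjusted p = 2.0e-05). Calb1, the calcium buffer of the same cells, was at 297, 272 and 214 CPM in WT-C and 1628, 639.5 and 1109.8 in KO-D, and the sodium-calcium exchanger Slc8a1 at 32.4, 55.6 and 41.04 in WT-C and 263, 102 and 159 in KO-D. The calcium entry, buffer and exit genes were thus each higher in all 3 KO-D mice than in any WT-C mouse, as were 26.1% of all tested genes. Trpm6, the magnesium channel, was at 5.25, 7.26 and 8.19 CPM in WT-C and 58.4, 28.1 and 46.6 in KO-D. Slc12a3, the thiazide-sensitive sodium chloride transporter, was at 144, 159 and 159 in WT-C and 721, 422 and 433 in KO-D. The kinase gene Wnk1, whose isoforms are not told apart by counts per gene, was at 100.2, 132 and 124 in WT-C and 613, 301 and 413 in KO-D. KO-D replicate 1 was the highest mouse for these 6 genes, and each stayed called without it. WT-D mice were at 25.7 ± 4.83 CPM for Trpv5 and 20.1 ± 6.35 for Trpm6. Compared directly, KO-D exceeded WT-D in Trpm6 by 1.13 on the log2 scale (adjusted p = 0.0353), which did not pass 0.01. Fxyd2, a subunit of the sodium pump that is also abundant in the proximal tubule, fell from 1164, 1007 and 851 CPM in WT-C to 341, 489 and 365 in KO-D.

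In the collecting duct 5 of 13 principal cell genes and 4 of 16 intercalated cell genes were higher and 0 lower. The 3 subunits of the epithelial sodium channel rose together, with Scnn1g at 21.3, 22.04 and 20.8 CPM in the WT-C mice and 67.3, 46.3 and 41.9 in the KO-D mice (log2 change 1.24, adjusted p = 2.1e-04) and log2 changes of 1.00 for Scnn1a and 0.80 for Scnn1b. The water channel Aqp2 was at 153, 84.98 and 57.8 CPM in WT-C and 41.9, 98.2 and 41.7 in KO-D (adjusted p = 0.179). Atp6v0d2, a proton pump subunit of intercalated cells, was at 21.2, 22.1 and 21.8 in WT-C and 58.6, 43.1 and 49.6 in KO-D. The intercalated count fell to 1 without WT-C replicate 3 and to 2 without KO-D replicate 1 or 3, and it was 10 on unscaled CPM and 9 in DESeq2. In the thick ascending limb 3 of 14 genes were higher and 1 lower, and 6 were higher and 0 lower on unscaled CPM. Kcnj1, the potassium channel Romk, was at 176, 124 and 91.4 CPM in WT-C and 339, 400.5 and 312 in KO-D. The sodium-potassium-chloride transporter Slc12a1 was at 432, 321 and 154 in WT-C and 185, 1314 and 761 in KO-D and the uromodulin gene Umod at 1262, 1026 and 548 in WT-C and 934, 2084 and 1181 in KO-D, with overlapping groups, and neither passed with KO-D replicate 1 in the fit. Without it Slc12a1 had an adjusted p of 0.00711.

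Podocyte genes were higher in KO-D, 11 of 19 being called (0 lower, median 1.27). Nphs1, which encodes nephrin of the slit diaphragm, was at 1.69, 2.24 and 5.37 CPM in the WT-C mice and 11.2, 8.47 and 9.96 in the KO-D mice (log2 change 1.80, SE 0.32, adjusted p = 9.5e-04). The actin binder Synpo was at 7.48, 5.86 and 11.5 CPM in WT-C and 29.8, 29.2 and 41.9 in KO-D. WT-C replicate 3 was the highest of the controls for both genes, and neither call was lost when any 1 of the 6 libraries was left out. Mesangial, pericyte and smooth muscle genes had 7 of 14 higher and 1 lower, with 4 higher without KO-D replicate 3 and 9 higher and 0 lower on unscaled CPM. Ren1, which encodes renin, was at 16.2, 40.3 and 30.7 CPM in WT-C and 126, 117 and 128 in KO-D (log2 change 2.18, adjusted p = 2.1e-04), with WT-D at 113 ± 15.8. Of 19 endothelial genes 5 were higher, 1 without WT-C replicate 2 or KO-D replicate 2 or 3, and 8 on unscaled CPM or in DESeq2. Ehd3, a marker of glomerular endothelium, kept its call (17.9, 11.8 and 19.98 CPM in WT-C and 37.1, 41.9 and 43.9 in KO-D).

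**Figure D3:**
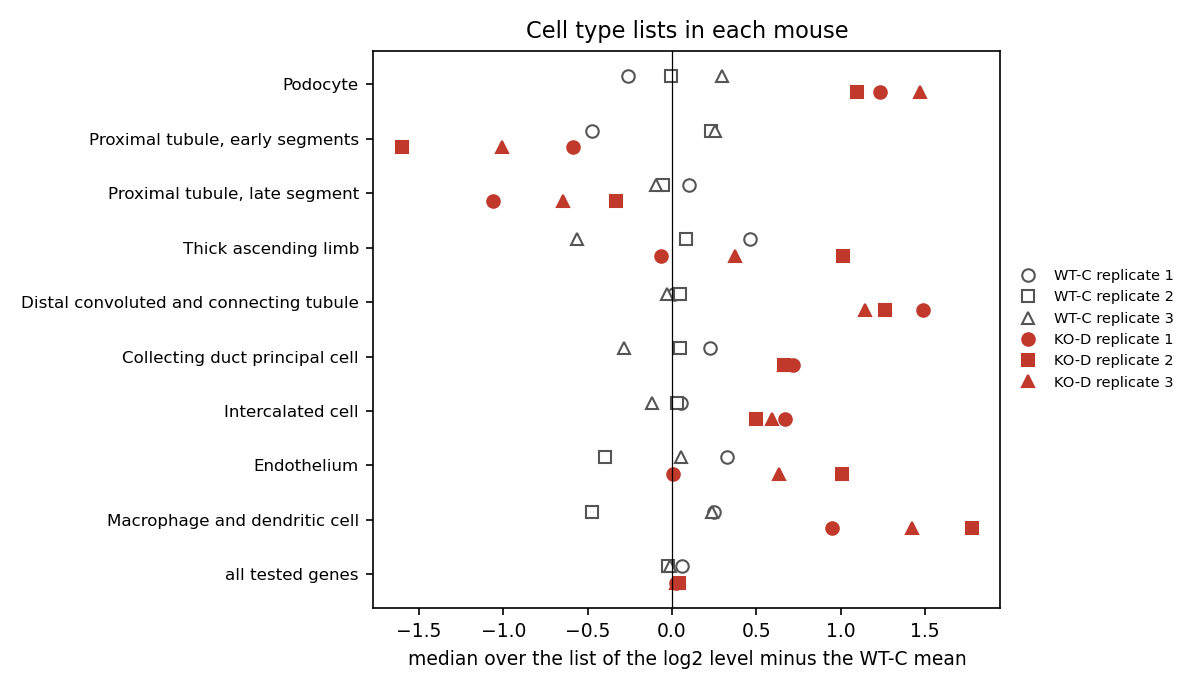
For 9 cell type lists and for all tested genes, the x axis gives the median over the list of the log2 level of 1 mouse minus the WT-C mean, with WT-C mice as open and KO-D mice as filled symbols. The distal convoluted and connecting tubule list lay at 1.14 to 1.49 in the KO-D mice and -0.03 to 0.05 in WT-C, the early proximal list at -1.6 to -0.59 and -0.47 to 0.26, and the thick ascending limb and endothelium lists overlapped.

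Of 23 genes of tubular injury 9 were higher and 2 lower (median 1.04), with 15 higher without KO-D replicate 1 and 16 higher and 1 lower on unscaled CPM. Spp1, which encodes osteopontin, had the largest gain in CPM of all called genes and was at 421, 301 and 237 CPM in the WT-C mice and 929, 1531 and 1546 in the KO-D mice (log2 change 2.06, SE 0.24, adjusted p = 6.8e-05). Vcam1, an adhesion molecule of tubules that fail to repair, was at 4.02, 1.85 and 3.02 in WT-C and 22.2, 17.9 and 25.2 in KO-D, and Krt20, a keratin of injured tubules, at 0.133, 0 and 0 in WT-C and 1.80, 2.13 and 4.01 in KO-D. The markers in common clinical use did not pass in limma on TMM-scaled CPM of all 12 libraries. Havcr1, which encodes Kim-1, was at 29.9, 32.4 and 20.5 CPM in WT-C and 31.2, 69.9 and 80.6 in KO-D (adjusted p = 0.0207, and 0.00142 without KO-D replicate 1). It was called in DESeq2 (adjusted p = 0.00226) and in limma on unscaled CPM (adjusted p = 0.00413). Lcn2, which encodes Ngal, was at 2.23, 1.68 and 0.985 in WT-C and 1.01, 15.8 and 4.64 in KO-D (adjusted p = 0.129, and 0.0046 without KO-D replicate 1). For both genes KO-D replicate 1 lay within the range of WT-C. Atf3, a stress-induced transcription factor, was at 0.930, 0.645 and 1.02 CPM in WT-C and 10.2, 7.26 and 23.6 in KO-D.

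Most called genes of tubular metabolism were lower, and their counts and medians moved with the scaling. Of 21 genes of glucose and fructose transport and gluconeogenesis 8 were lower and 0 higher (median -0.96, and -0.43 without scaling, where 6 were lower and 3 higher). Khk, which phosphorylates fructose, was at 789, 789 and 690.4 CPM in the WT-C mice and 182, 208 and 155 in the KO-D mice (log2 change -2.06, SE 0.22, adjusted p = 4.9e-05). Pcx, pyruvate carboxylase, was at 506, 667 and 499.8 CPM in WT-C and 155, 103 and 93.2 in KO-D, and Fbp1, fructose bisphosphatase, at 901, 1348 and 1176 in WT-C and 536, 382 and 431 in KO-D. The gatekeepers of glucose output had wider spread, with Pck1 at 1428, 1975 and 1679 CPM in WT-C and 1077, 451 and 613 in KO-D (adjusted p = 0.0295) and G6pc at 179.7, 323 and 479 in WT-C and 247, 95.8 and 158 in KO-D (adjusted p = 0.0788). Within glycolysis and the TCA cycle 3 of 32 genes were higher and 7 lower (4 without WT-C replicate 2 or KO-D replicate 3), and on unscaled CPM 5 were higher and 1 lower and the median of -0.36 turned to 0.17. Hk2, a hexokinase of injured and growing cells, rose from 0.199, 0.0841 and 0.272 CPM in WT-C to 0.916, 1.31 and 1.69 in KO-D. Gapdh, often used as a reference gene, was at 1683, 2275 and 2065 CPM in WT-C and 823, 947 and 736 in KO-D (log2 change -1.26, adjusted p = 0.00245). Its call was lost without WT-C replicate 2 (0.0125) or 3 (0.0109), without KO-D replicate 3 (0.0154) and without scaling (0.0155).

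**Figure D4:**
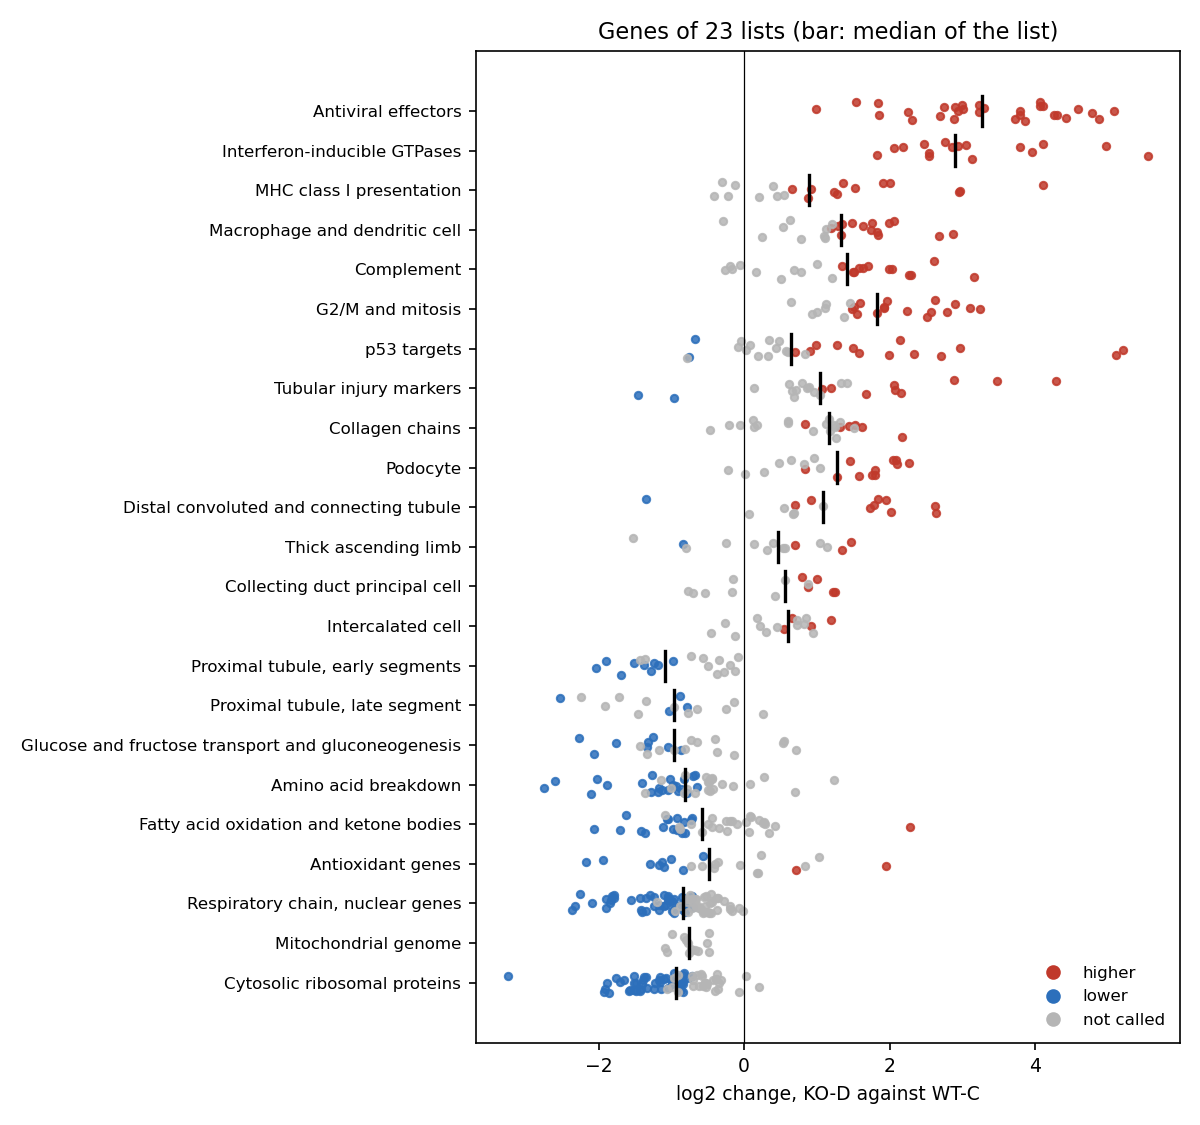
Log2 change in KO-D against WT-C of each tested gene of 23 lists (x axis), coloured by call, with the median of the list as a bar. The antiviral effectors and the interferon-inducible GTPases lie wholly above 0 with medians of 3.26 and 2.90, and the cytosolic ribosomal proteins and nuclear respiratory chain genes lie mostly below 0 with medians of -0.94 and -0.84.

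Of 45 genes of amino acid breakdown 23 were lower and 0 higher (median -0.81). The count was 13 without WT-C replicate 2 or 3 and 14 without KO-D replicate 2 or 3, and on unscaled CPM 9 were lower and 2 higher. Haao, of tryptophan breakdown, was at 226, 225 and 198 CPM in the WT-C mice and 28.2, 45.5 and 25.7 in the KO-D mice (log2 change -2.75, SE 0.32, adjusted p = 7.8e-05). Hpd, of tyrosine breakdown, was at 122, 271 and 180.1 CPM in WT-C and 33.4, 35.3 and 22.4 in KO-D. Acy3, which removes acetyl groups from mercapturic acids, was among the 5 largest losses in CPM, at 2338, 2669 and 3095 in WT-C and 655, 716 and 523 in KO-D. All 3 separated the groups, as 26.4% of all tested genes did in this direction. WT-D mice were at 81.8 ± 53.01, 56.6 ± 15.6 and 1276 ± 601 CPM for the 3 genes. Of 41 genes of fatty acid oxidation and ketone bodies 16 were lower and 1 higher (median -0.57, and -0.04 on unscaled CPM, where 6 were lower and 2 higher). The lower count was 10 without WT-C replicate 2 or KO-D replicate 3. Acads, the short-chain dehydrogenase, was at 152, 176 and 148 CPM in WT-C and 50.6, 59.3 and 45.1 in KO-D, whereas Cpt1a, the entry step of long-chain fatty acids into mitochondria, was at 166, 315 and 276 in WT-C and 315, 226 and 248 in KO-D (adjusted p = 0.76).

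Of 22 antioxidant genes 9 were lower and 2 higher, and on unscaled CPM 4 were lower and 4 higher and the median of -0.49 turned to 0.05. Prdx5, a mitochondrial peroxiredoxin, was at 1629, 1535 and 1303 CPM in the WT-C mice and 294, 405 and 297 in the KO-D mice (log2 change -2.18, SE 0.26, adjusted p = 8.3e-05). Gpx1, glutathione peroxidase, was at 1067, 1164 and 1001 in WT-C and 321, 265 and 261 in KO-D. WT-D mice were at 912 ± 371 CPM for Prdx5, and KO-D was lower than WT-D by a log2 change of -1.39 in the direct comparison (adjusted p = 0.012), which did not pass 0.01. Without KO-D replicate 3, 5 of the list were lower and 0 higher. Among the transcription factors of the tubule 4 of 19 were lower and 2 higher, 2 were lower without WT-C replicate 2 or 3 or KO-D replicate 3, and on unscaled CPM 1 was lower and 3 higher. Esrra, a nuclear receptor that drives mitochondrial genes, was at 38.7, 43.8 and 32.2 CPM in WT-C, 10.8, 12.9 and 6.60 in KO-D and 35.9 ± 15.1 in WT-D (log2 change -1.95, adjusted p = 4.3e-04, and -1.77 against WT-D, adjusted p = 0.0107). Hnf4a, the master factor of proximal tubule genes, was at 332, 623 and 634 CPM in WT-C and 467, 334 and 366 in KO-D (adjusted p = 0.215).

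Lower genes were frequent in the machinery of mitochondria and ribosomes. Of 80 nuclear genes of the respiratory chain 43 were lower and 0 higher (median -0.84, 28 lower without KO-D replicate 1), and 72 separated the groups, as 26.4% of all tested genes did in this direction. The median of the list relative to the WT-C mean was 0.44, -0.20 and -0.19 in the WT-C mice. It was -0.99, -0.77 and -0.80 in KO-D, -0.72, -0.70 and -0.16 in WT-D, and -0.33, -0.17 and -0.52 in KO-C. Uqcr11, a subunit of complex III, was at 162, 98.5 and 84.2 CPM in the WT-C mice, 17.6, 30.7 and 17.7 in the KO-D mice and 74.8 ± 30.6 in WT-D (log2 change -2.37, SE 0.32, adjusted p = 1.6e-04). Sdhb, of complex II, was at 551, 465 and 434 in WT-C and 176, 195 and 163 in KO-D. The 13 protein genes of the mitochondrial genome had a median of -0.76 and 0 calls in limma (4 with an unadjusted p under 0.05, 0 called by edgeR and 7 by DESeq2). WT-C replicate 1 held the most mitochondrial reads, 28.1% of its total, and the other 5 libraries 19.8 to 24.0%.

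Of 76 cytosolic ribosomal protein genes 47 were lower and 0 higher (median -0.94), and 35 to 50 were lower with 1 of the 6 libraries left out. The median of the list relative to the WT-C mean was 0.46, -0.18 and -0.27 in the WT-C mice. It was -1.08, -0.87 and -0.89 in KO-D, -0.59, -0.76 and -0.21 in WT-D, and -0.36, -0.21 and -0.52 in KO-C. Leaving out clone and pseudogene numbers, Rpl36 had the largest decrease of the called genes, at 81.04, 47.4 and 30.8 CPM in the WT-C mice and 3.73, 8.93 and 3.92 in the KO-D mice (log2 change -3.25, SE 0.52, adjusted p = 4.6e-04). KO-D was also below WT-D, at 46.9 ± 29.5 CPM, by a log2 change of -2.89 with an adjusted p of 0.0114, which did not pass 0.01. Rps9 was at 471, 313 and 274 CPM in WT-C and 77.2, 131 and 84.2 in KO-D. Ribosomal protein genes share reads with their processed pseudogenes, and of 1961 tested processed pseudogenes 25 were higher and 268 lower. On unscaled CPM 19 of the 80 respiratory and 19 of the 76 ribosomal genes were lower and 0 higher. The called lower genes were also shorter and richer in GC, with a median length of 1815 bases and 53.8% GC against 4209 bases and 47.6% for the called higher genes. With the trend of the log2 change on GC content and length removed, 41 respiratory and 46 ribosomal genes were lower.

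Other genes with the largest decreases were of diverse function. Nat8f1, an acetyltransferase of the endoplasmic reticulum, was at 691, 511 and 471 CPM in the WT-C mice and 105, 71.96 and 73.2 in the KO-D mice (log2 change -2.74, SE 0.33, adjusted p = 8.7e-05). Ttc36 was at 112, 88.6 and 78.9 in WT-C and 12.6, 17.9 and 10.9 in KO-D, Susd3 at 74.6, 61.7 and 42.6 in WT-C and 10.9, 7.85 and 6.57 in KO-D, and Fitm1, which buds lipid droplets, at 16.3, 19.01 and 11.6 in WT-C and 1.33, 3.02 and 1.25 in KO-D. Hnf4aos, which is antisense to Hnf4a and cannot be told apart from it where they overlap because the kit does not mark strand, was at 22.5, 14.2 and 12.6 in WT-C and 2.43, 2.76 and 1.40 in KO-D. The largest decreases were drawn only from genes whose groups did not overlap. Dpm3, a subunit of an enzyme of protein glycosylation, was at 6.25, 5.44 and 3.06 CPM in WT-C and 0.284, 0.854 and 0.357 in KO-D, with an adjusted p of 0.0111 without KO-D replicate 3. Car3, carbonic anhydrase 3, was at 13.8, 35.8 and 37.4 in WT-C and 2.46, 3.02 and 3.54 in KO-D, and Ugt2a3, a glucuronosyl transferase, at 5.98, 9.17 and 10.02 in WT-C and 2.97, 0.263 and 1.22 in KO-D. Without WT-C replicate 2 or 3 or KO-D replicate 2 or 3 both lost their call, with adjusted p of 0.021 to 0.0324 for Car3 and 0.0132 to 0.0174 for Ugt2a3. Car3 also lost it without KO-D replicate 1 (0.022), on unscaled CPM (0.0202) and in edgeR (0.0103).

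Hormone-related genes of the tubule moved in both directions. Cyp27b1, which makes active vitamin D, was at 2.09, 2.38 and 6.76 CPM in the WT-C mice and 28.2, 8.54 and 21.02 in the KO-D mice (log2 change 2.37, SE 0.44, adjusted p = 0.00114), with WT-D at 8.96 ± 1.91. Cyp24a1, which degrades it, was at 92.2, 62.7 and 45.4 in WT-C and 14.7, 14.3 and 34.4 in KO-D (adjusted p = 0.0524). The phosphate transporter Slc34a3 was at 11.4, 21.5 and 25.5 CPM in WT-C and 6.98, 2.72 and 4.49 in KO-D, and the parathyroid hormone receptor Pth1r at 263, 391.8 and 346 in WT-C and 126, 119.7 and 97.5 in KO-D. Of 15 genes of phosphate, vitamin D and Klotho 2 were higher and 4 lower, with a median of -0.31 that turned to 0.22 on unscaled CPM, where 4 were higher and 3 lower. Klotho itself, Kl, was at 284, 414 and 428 CPM in WT-C and 674, 304 and 399.9 in KO-D (adjusted p = 0.474). Of 27 organic ion and drug transporters 10 were lower and 2 higher, and 0 were higher without WT-C replicate 1 or 3 or KO-D replicate 2 or 3. On unscaled CPM 5 were lower and 4 higher, and the median moved from -0.54 to -0.01. Among the lower genes was the urate transporter Slc22a12, at 480.4, 784 and 659 CPM in WT-C and 214, 221 and 180.3 in KO-D.

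The called matrix genes were higher in KO-D mice, and they were the smaller part of each list. Of 23 collagen chains 6 were higher and 0 lower (median 1.16), and the count was 11 without KO-D replicate 1, 3 without WT-C replicate 2 and 2 without KO-D replicate 2 or 3. It was 15 on unscaled CPM and 11 in DESeq2. With the trends on GC content and length removed 4 chains were higher and 1 lower. Col14a1, a collagen of interstitial fibres, was at 9.64, 3.39 and 10.6 CPM in the WT-C mice and 30.9, 31.02 and 34.3 in the KO-D mice (log2 change 2.17, SE 0.32). Of 30 glycoproteins, laminins and proteoglycans 9 were higher and 0 lower. With 1 of the 6 libraries left out 6 to 10 were higher and 0 to 1 lower. With the trends on GC content and length removed 7 were higher and 2 lower. Nid1, which links laminin to collagen, was at 10.1, 6.34 and 10.9 CPM in WT-C and 29.9, 45.1 and 43.4 in KO-D. Of 26 matrix proteases, crosslinkers and inhibitors 11 were higher, and 6 without KO-D replicate 3. Serpine2, an inhibitor of serine proteases, was at 13.6, 7.93 and 8.70 CPM in WT-C and 47.03, 37.9 and 44.7 in KO-D (log2 change 2.12, adjusted p = 2.2e-05). KO-D replicate 1 lay below the other KO-D mice for the collagen list, with a median of 0.54 against 1.6 and 1.21.

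Grem1, a secreted antagonist of bone morphogenetic proteins that is known from diabetic kidneys (chromosome 2, 113746164 to 113758646 in mm10), was at 0.332, 0.196 and 0.340 CPM in the WT-C mice and 10.8, 13.8 and 14.4 in the KO-D mice. Its log2 change was 5.08 (SE 0.30, adjusted p = 2.0e-06), with WT-D at 18.95 ± 6.56 CPM and KO-C at 0.322 ± 0.106. Id1, a target gene of BMP signaling, fell from 8.17, 9.56 and 12.1 CPM in WT-C to 4.83, 5.02 and 4.28 in KO-D (log2 change -1.04, adjusted p = 6.1e-04), a call that was lost on unscaled CPM (adjusted p = 0.0703) and with the trends on GC content and length removed (0.0148). Inhba, a subunit of activin, was at 0.0332, 0.0280 and 0 CPM in WT-C and 0.442, 0.361 and 0.416 in KO-D. Of 28 TGF-beta and BMP genes 8 were higher and 3 lower. Without KO-D replicate 3 these counts were 3 and 1, without WT-C replicate 2 or KO-D replicate 2 5 were higher, and without WT-C replicate 1 1 was lower. On unscaled CPM 15 were higher and 0 lower. Among 28 ligands and receptors of the PDGF, VEGF and EGF families 10 were higher, 5 without KO-D replicate 2 and 6 without WT-C replicate 2 or KO-D replicate 3. With the trends on GC content and length removed 6 were higher and 4 lower. Areg, an EGF receptor ligand, was at 0.0332, 0 and 0.102 CPM in WT-C and 2.05, 1.08 and 1.93 in KO-D (log2 change 3.64, SE 0.42). Gc, the vitamin D-binding protein, had one of the 5 smallest p-values and was at 3.46, 4.07 and 5.06 CPM in WT-C and 34.7, 40.9 and 61.2 in KO-D (log2 change 3.39, SE 0.21).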

How the data were processed

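Polyadenylated RNA of renal cortex was sequenced from 12 male mice, 3 in each group, with a kit that does not mark strand. The authors aligned reads with STAR 2.7.3a to mm10, counted them per gene and deposited CPM made with edgeR 3.28.0 (R 3.6.1), in which each library sums to 1000000. All 298586 values above 0 were whole reads within 0.01. A second deposited table of the authors' own log2 fold changes and adjusted p-values was not used.

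Of 55421 genes, 18461 had enough reads (edgeR's filterByExpr, at least 10 reads, or 0.284 CPM in the median library). CPM were TMM-scaled and log2(CPM + 0.1) was fitted with limma 3.58.1 (trend) in R 4.3.3, with 4 group means over the 12 libraries and 8 residual degrees of freedom. Two-sided p-values were adjusted over the tested genes and called at 0.01. The script was tested on simulated data. Recovered read counts were also tested with edgeR 4.0.16 and DESeq2 1.42.0. Other scalings, pseudocounts of 0.5 and 1, other filters, the 6 libraries alone, a replicate block, leaving out each mouse, and a correction for GC content and length were tried. P-values measure the spread between mice as labelled. Depth is given as reads, and no pair of libraries within WT-C or within KO-D agreed within sampling noise.

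Genes were grouped in 62 lists by function. The genes named are the 10 largest increases and decreases with a mean of at least 1 CPM and no overlap (clone and pseudogene numbers left out), the 5 largest gains and losses in CPM, the 5 smallest p, up to 4 genes a list by p, and key members that did not pass. Clone-numbered genes and the fragile calls among them are mostly left out of the text. Members and lists were chosen with earlier results of these data known. The position of Cdkn2b, a neighbour of the deletion, led to its being named after its values were seen. Promoter sequences are from RefSeq (GRCm38.p6), 250 bases before each start.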

Additional observations from a re-analysis of the deposited data

How the results depend on the processing

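The number of genes called in KO-D against WT-C was 4156 to 4351 with RLE or upper-quartile scaling, with a pseudocount of 0.5 or 1 and in edgeR's quasi-likelihood test. It was 5494 in DESeq2, 3526 without a filter on low values, 3949 with a mean of at least 1 CPM and 3497 with the 6 compared libraries alone. Without scaling 4690 genes were higher and 674 lower (87.4% higher, against 44.5% with TMM). With the trends on GC content and length removed, an alternative chosen after seeing the data, 33.0% of 4196 calls were higher. Which scaling is nearer the amount of RNA per cell was not tested. With 1 mouse left out the calls ranged from 2372 (without KO-D replicate 3) to 3483, with 1011 to 1530 higher and 1361 to 1953 lower (38.8 to 46.0% higher).

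The replicate numbers do not pair the mice. Deviations from the group mean correlated at -0.35 to 0.29 between libraries of the same number, and 1 of the 12 libraries correlated best with its own number. A fit with the replicate number as a block called 3477 genes, and 7 of the 235 called genes that were chosen for naming lost their call in it.

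Of these 235 genes 235 kept their call with RLE scaling and in DESeq2, 233 with upper-quartile scaling, 228 in edgeR, 210 on unscaled CPM, 214 with the GC and length trends removed, and 189 (without KO-D replicate 3) to 215 (without WT-C replicate 1) with 1 mouse left out. None reversed its direction in any of these alternatives. With 3 mice a group and 23781928 reads in the shallowest KO-D library, genes under about 1 CPM rest on few reads, and changes of small size can be missed.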

Other observations

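Of 52 tested cytochrome P450 genes 9 were higher and 12 lower, against 10.4% and 13% of all tested genes, and on unscaled CPM 11 were higher and 4 lower with a median that turned from -0.25 to 0.21. Cyp1b1, an enzyme of mesenchymal cells, was at 9.04, 4.79 and 7.64 CPM in the WT-C mice and 18.1, 24.9 and 31.04 in the KO-D mice (log2 change 1.79, SE 0.25, limma adjusted p = 2.4e-04), whereas Cyp2d26 was at 35.9, 69.4 and 50.96 in WT-C and 18.8, 9.59 and 16.1 in KO-D. Without WT-C replicate 2 or 3 or KO-D replicate 2 or 3 the counts were 4 to 6 higher and 5 to 7 lower. The counts over all tested genes fell in such fits too, to 1011 higher and 1361 lower without KO-D replicate 3. Of 43 glucuronosyl, glutathione and sulfo transferases 6 were higher and 10 lower (6 lower without WT-C replicate 2), and on unscaled CPM 9 were higher and 5 lower with a median that turned from -0.03 to 0.42. Ugt1a2 was at 0, 0.0561 and 0.0340 CPM in WT-C and 0.821, 0.788 and 1.04 in KO-D, and Gstt2 at 341, 317 and 279 in WT-C and 72.05, 112 and 86.2 in KO-D.

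Of 30 genes of sterol and fatty acid synthesis 8 were lower and 1 higher, with a median of -0.44 that turned to 0.10 on unscaled CPM, where 2 were lower and 2 higher. The lower count was 3 without WT-C replicate 2, 5 without WT-C replicate 1 or KO-D replicate 1 or 3, and 13 with the trends on GC content and length removed. Mvd, of the mevalonate pathway, was at 62.4, 56.8 and 47.6 CPM in the WT-C mice, 10.1, 13.4 and 9.40 in the KO-D mice and 33.8 ± 12.6 in WT-D, and fell with a log2 change of -2.34 (SE 0.22, adjusted p = 2.8e-05). Of 20 genes of the integrated stress response and ER stress 5 were higher and 1 lower, and 9 were higher on unscaled CPM. Asns, asparagine synthetase, was at 9.44, 8.24 and 7.85 CPM in WT-C and 28.1, 23.2 and 27.03 in KO-D, and its log2 change of 1.61 (SE 0.15, adjusted p = 2.7e-05) was measured with little spread between mice.

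Among 9 androgen-responsive tubule genes 3 were lower, 5 without KO-D replicate 1 or with the trends on GC content and length removed, and 1 without WT-C replicate 1 or 3 or KO-D replicate 2 or 3. Cyp4b1 was at 3824, 4398 and 5069 CPM in WT-C and 1853, 594 and 898 in KO-D, and Slco1a1 at 566, 437 and 548 in WT-C and 363, 70.3 and 98.3 in KO-D (adjusted p = 0.0109, and 6.3e-04 without KO-D replicate 1). Transthyretin, Ttr, was at 153, 118 and 273 CPM in WT-C and 39.7, 28.96 and 22.8 in KO-D (log2 change -2.51, SE 0.34). Adipoq, a marker of fat, had at most 0.0297 CPM in these 6 libraries. Hemoglobin message stood apart in WT-C replicate 3, where Hbb-bs was at 1987 CPM against 613 and 354 in the other WT-C mice.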
